A study of Mus musculus with 19 samples.

Results

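The 8 genes described here, Col4a1, Col4a2, Col1a1, Tgfb1, Smad3, Timp2, Des and Reln, mark hepatic stellate cells or act in liver fibrosis, and they are 8 of 21887 protein-coding genes of the RefSeq table. Their sites were taken as every row of the authors' 3 comparison tables lying inside one of these genes or within 2 kb of either end, which gave 23 of the 8525 different sites listed in any table. A site is the cytosine of a CpG on a given strand, so a CpG listed on both strands counts as 2 sites. The genes were chosen by the authors' differences and q-values themselves, since each holds a listed site, so the presence, sign and size of these differences describe the genes and test nothing.

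Liver DNA came from 5 Mat1a knockout (KO) mice given S-adenosylmethionine (SAMe), 6 Mat1a KO mice given placebo and 8 untreated wild-type (WT) mice, all aged 10 months, with treatment lasting 8 weeks per the series title. Mat1a encodes the liver enzyme that makes SAMe, the methyl donor of DNA methylation. The WT mice received neither placebo nor SAMe, so in each comparison with WT the genotype and the treatment procedure changed together. Reduced-representation bisulfite sequencing (RRBS), which reads cytosine methylation in fragments cut out by MspI and TaqαI, was compared site by site by the authors. The tables hold a group difference in percentage points with its p-value and q-value, and no level, coverage or value of any animal. Depth is therefore unknown, no value below carries a spread between animals, and an unlisted site was either below the authors' limits or not covered. Differences were read as the second-named group of each table minus the first, the usual order of the software (KO minus WT, SAMe minus placebo). The tables do not state this order, and under the opposite one every direction turns round together.

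Stellate cells lie between hepatocytes and the sinusoidal endothelium, store vitamin A and turn into matrix-producing myofibroblasts in injured liver. Transforming growth factor beta (TGF-beta) drives that change through receptors that phosphorylate Smad3, which then switches on collagen genes. Type IV collagen builds basement membranes, type I collagen forms the fibrils of scar tissue, and tissue inhibitors of metalloproteinases slow the breakdown of both. These cells are a minority in liver, and the labels name whole liver. A changed share of stellate cells and a changed methylation level within cells cannot be told apart in such DNA, and methylation differences do not by themselves mark a cell type.

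Methylation lies on CpG dinucleotides, and RRBS fragments start at enzyme sites, so both were read in the 250 bases before the start of the genes whose listed sites lie closest to it. The sequences, from RefSeq (GRCm38.p6), are printed 5′ to 3′ on the gene's strand. Capitals mark CCGG, the MspI site, and TCGA, the TaqαI site, was also searched. Both motifs read the same on either strand.
Timp2, chr11:118355412-118355661, minus strand: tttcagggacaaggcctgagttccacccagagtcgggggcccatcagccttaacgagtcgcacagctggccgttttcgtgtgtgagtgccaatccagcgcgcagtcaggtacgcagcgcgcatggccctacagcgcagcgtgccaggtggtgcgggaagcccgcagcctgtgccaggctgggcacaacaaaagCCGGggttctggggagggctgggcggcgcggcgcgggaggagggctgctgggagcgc
Reln, chr5:22344706-22344955, minus strand: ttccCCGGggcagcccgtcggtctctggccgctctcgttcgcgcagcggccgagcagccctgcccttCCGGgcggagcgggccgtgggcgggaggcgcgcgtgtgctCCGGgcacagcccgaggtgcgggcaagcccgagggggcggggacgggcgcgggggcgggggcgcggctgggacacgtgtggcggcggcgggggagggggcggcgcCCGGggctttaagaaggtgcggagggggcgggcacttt
Des, chr1:75360042-75360291, plus strand: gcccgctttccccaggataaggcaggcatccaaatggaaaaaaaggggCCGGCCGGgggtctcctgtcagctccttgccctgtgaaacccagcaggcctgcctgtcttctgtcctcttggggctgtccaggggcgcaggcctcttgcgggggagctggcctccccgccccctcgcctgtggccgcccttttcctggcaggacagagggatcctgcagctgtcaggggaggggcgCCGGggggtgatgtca
The Timp2 stretch held 21 CpG and 1 CCGG, the Reln stretch 37 CpG and 4 CCGG, and the Des stretch 10 CpG and 3 CCGG, with no TCGA in any of them. The median over 32851 RefSeq promoters of this length was 6 CpG, 47.1% of them held a CCGG and 18.5% a TCGA. The promoter table held 7 of the 8 genes, Col1a1 being the other one. No listed site of any table fell in the 300-base windows (250 before to 50 after the start) of these 7 genes, and over all coding genes 30 of 21263 windows (0.141%) held a site in KO SAMe vs WT and 38 (0.179%) in KO placebo vs WT.

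Methylation was lower than in WT at every listed site of these genes. In KO SAMe vs WT all 8 genes held a site, 17 sites in all, with a median of −26.1 percentage points and a range from −37.3 to −20.8 in the authors' deposited table. In KO placebo vs WT 6 genes held 15 sites, with a median of −24.0 and a range from −42.2 to −20.8 in the authors' deposited table. Of all coding genes, 10.8% had a listed site in KO SAMe vs WT and 12.5% in KO placebo vs WT. Lower sites made up 99% of all listed sites in KO SAMe vs WT and 99.4% in KO placebo vs WT, so the shared direction of the 8 genes is that of the tables as a whole. The medians over all listed sites were −26.6 for KO SAMe vs WT and −25.9 for KO placebo vs WT in the authors' deposited tables. KO SAMe vs KO placebo listed 0 sites in these 8 genes, where 0.658% of all coding genes had one.

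In placebo-treated KO liver most sites of these genes lay close to the listing limit of 20 percentage points. A loss of at least 25 was reached by 10 of 17 sites (58.8%) in KO SAMe vs WT, against 60.3% of all sites in that table, and by 3 of 15 sites (20%) in KO placebo vs WT, against 55.5%. The values just inside the limit were −20.8 for Tgfb1 and −20.9 for an upstream Reln site in KO SAMe vs WT, and −20.8 for Smad3 in KO placebo vs WT, in the authors' deposited tables. No listed site lay between 2 and 10 kb from any of the genes, other than one 4.07 kb inside Col4a1 that is also near its neighbour Col4a2.

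**Figure D1:**
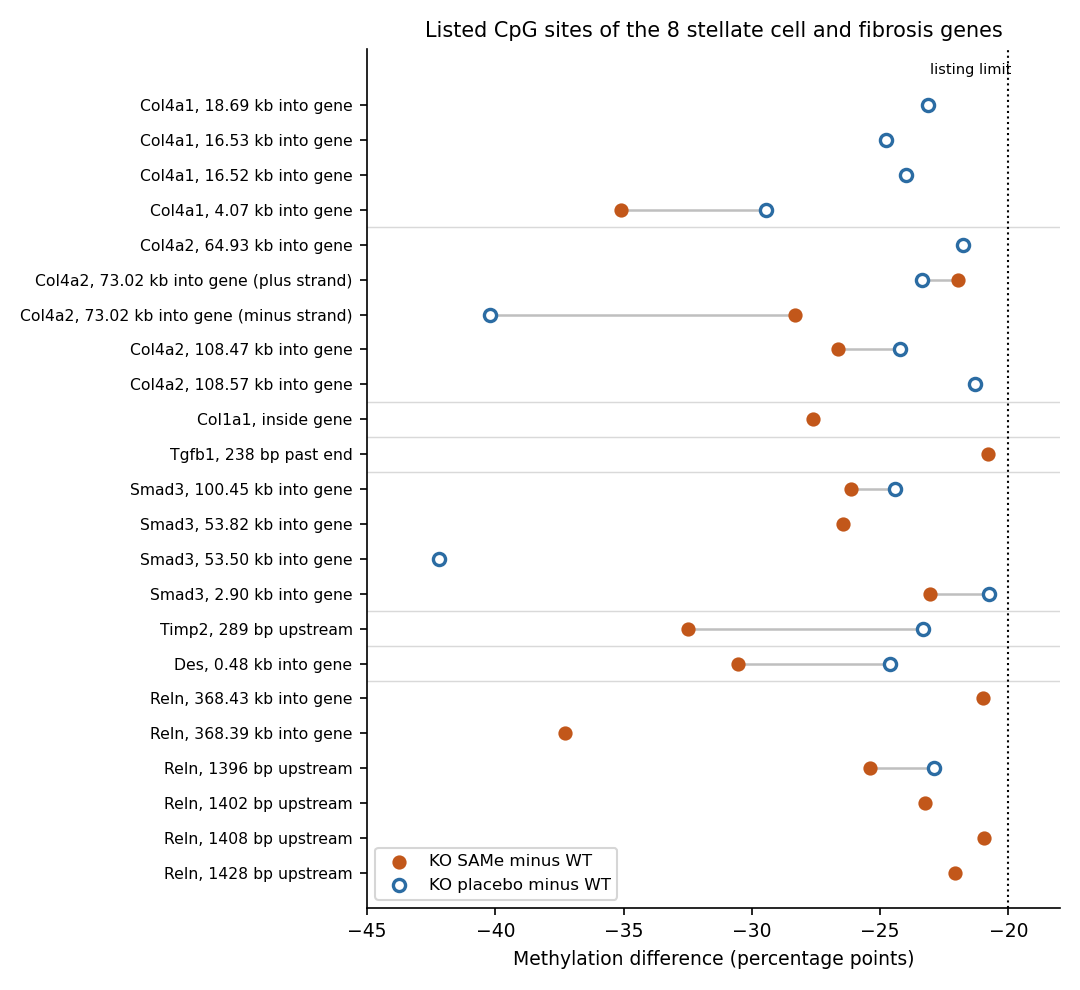
Methylation difference from WT, in percentage points, at each of the 23 listed CpG sites, with 1 row per site (genes in order of role, place given from the gene's start). Filled points are KO SAMe minus WT and open points KO placebo minus WT, a grey line joins values of 1 site, and the dotted line is the listing limit of −20. All points lie between −42.2 and −20.8, and 9 sites carry both values.

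The type IV collagen pair carried 9 of the 23 sites. Col4a1 and Col4a2 encode the α1 and α2 chains that wind together in basement membranes, and they start from a shared region on chromosome 8 in opposite directions (Col4a1 11198423 to 11312889, Col4a2 11312805 to 11449287, mm10), their annotated spans overlapping by 85 bp. In Col4a1 the site 4.07 kb into the gene (position 11308753) stood at −35.1 percentage points in KO SAMe and −29.4 in KO placebo relative to WT (q listed as 0 and 1e-11) in the authors' deposited tables. The other 3 Col4a1 sites were listed for KO placebo vs WT only. They lay 16.5 to 18.7 kb into the gene, with −24.0 and −24.8 at positions 11296302 and 11296293 and −23.1 at 11294134 in the authors' deposited table.

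Col4a2 held its sites deep inside the gene, from 64.9 to 108.6 kb after the start. At position 11421271 the difference was −26.7 percentage points in KO SAMe and −24.2 in KO placebo (both q listed as 0) in the authors' deposited tables. A site 106 bp away, 11421377, was listed for KO placebo only, at −21.3 (q = 5.57e-05), as was 11377735 at −21.8 (q = 6.95e-06), in the authors' deposited table. Every Col4a1 and Col4a2 site listed for KO SAMe vs WT was also listed for KO placebo vs WT, 4 sites in all.

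A further pair of Col4a2 sites, 11385823 and 11385824, are the cytosines of a single CpG on the plus and the minus strand. The plus strand stood at −22.0 percentage points in KO SAMe and −23.4 in KO placebo, in the authors' deposited tables. On the minus strand the same CpG stood at −28.3 in KO SAMe and −40.2 in KO placebo (q listed as 0 for both) in the authors' deposited tables. The strands thus differed by 6.34 percentage points in KO SAMe vs WT and by 16.9 in KO placebo vs WT. CpG methylation is usually symmetric, so such pairs show how far 2 readings of 1 CpG can lie apart. Over the genome 21 CpGs were listed on both strands in KO SAMe vs WT, with a median gap of 5.0 (quartiles 3.22 and 9.29), and 23 in KO placebo vs WT, with a median gap of 5.71 (quartiles 2.52 and 8.76), from values in the authors' deposited tables. The Col4a2 gap in KO placebo vs WT was the widest of those 23, and the −40.2 there is the second-lowest value of the 8 genes. A pair enters this count only if both strands passed the limit, which leaves larger gaps unseen.

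**Figure D2:**
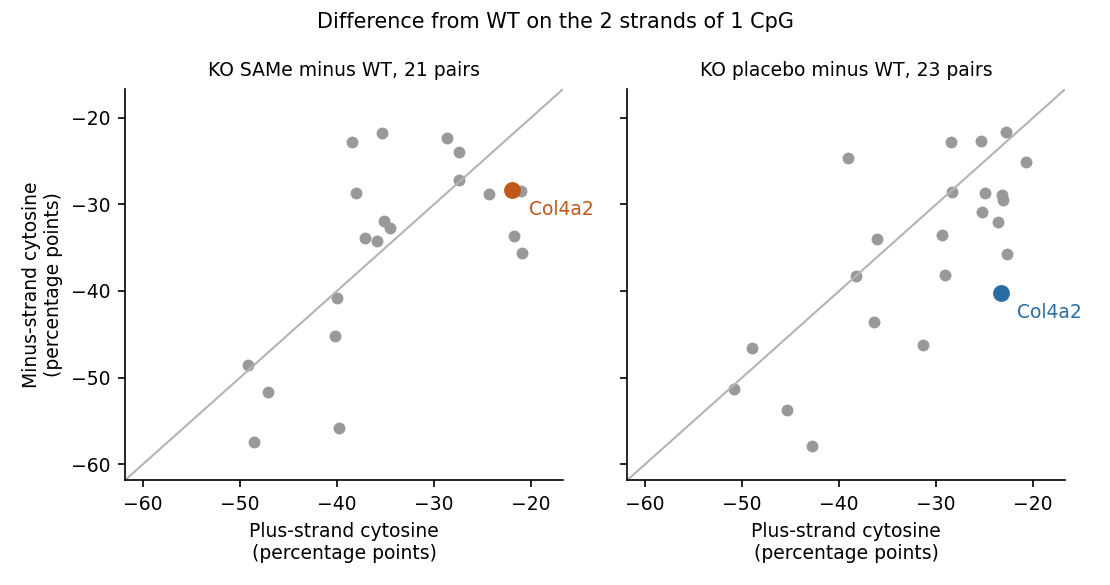
Difference from WT in percentage points for the minus-strand cytosine (vertical axis) against the plus-strand cytosine (horizontal axis) of CpGs listed on both strands, with KO SAMe minus WT on the left (21 pairs) and KO placebo minus WT on the right (23 pairs). The line marks equal values, and the coloured point is Col4a2, whose strands differ by 6.34 percentage points in KO SAMe and 16.9 in KO placebo.

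Col1a1 encodes the α1 chain of type I collagen, the main fibril collagen of scar tissue. Its only listed site, position 94948730 on chromosome 11 inside the gene (94936224 to 94953042), stood at −27.6 percentage points in KO SAMe relative to WT (q = 9.9e-10) in the authors' deposited table. It was not listed for KO placebo vs WT. Tgfb1 encodes the TGF-beta ligand that activates stellate cells. It too was listed for KO SAMe vs WT only, at −20.8 percentage points (q = 7.59e-08) at position 25705315 on chromosome 7, 238 bp past the end of the gene, in the authors' deposited table. Being listed in one table and not in the other does not show that the KO groups differed at these sites, and neither is in the table comparing KO SAMe with KO placebo.

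Smad3, the receptor-activated transcription factor of the TGF-beta pathway, held 4 sites spread over 97.5 kb of the 111.2 kb gene (chromosome 9, 63646766 to 63757994). Near its start, 2.90 kb into the gene at 63755091, the difference was −23.1 percentage points in KO SAMe and −20.8 in KO placebo (q listed as 0 for both) in the authors' deposited tables. Near its far end, 100.5 kb from the start at 63657542, it was −26.1 in KO SAMe and −24.4 in KO placebo (q = 7.59e-07 and 7.27e-07) in the authors' deposited tables. The middle of the gene gave different sites in the 2 tables. Position 63704173 stood at −26.4 in KO SAMe vs WT (q = 0.000142), and 63704494, 321 bp away, at −42.2 in KO placebo vs WT (q = 4.72e-12), in the authors' deposited tables. That −42.2 is the largest loss among the 8 genes. The same site was listed neither for KO SAMe vs WT nor for KO SAMe vs KO placebo, and no level or coverage shows where SAMe-treated KO liver stood there.

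Timp2 encodes a secreted inhibitor of matrix metalloproteinases. Its single site, position 118355700 on chromosome 11, lay 289 bp upstream of the start and 39 bp beyond the stretch printed above, the nearest of all 23 sites to a gene start. It stood at −32.5 percentage points in KO SAMe and −23.3 in KO placebo relative to WT (q = 1.41e-11 and 4.6e-06) in the authors' deposited tables. Both KO groups were below WT there, and by subtraction SAMe-treated minus placebo-treated KO liver came to −9.15 percentage points, a difference that the table of KO SAMe vs KO placebo does not list.

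Des encodes desmin, an intermediate filament of stellate and muscle cells that marks stellate cells in rodent liver. Its site, 480 bp into the gene at 75360772 on chromosome 1, stood at −30.6 percentage points in KO SAMe and −24.6 in KO placebo relative to WT (q listed as 0 and 5.48e-10) in the authors' deposited tables. Des is the shortest of the 8 genes, at 8.29 kb.

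Reln encodes reelin, a secreted glycoprotein of neurons that stellate cells also make in liver. The gene is the longest of the 8, 460.3 kb on chromosome 5 (21884454 to 22344705), and its 6 sites formed 2 groups. The first group lay upstream, where 4 sites within 32 bp stood 1396 to 1428 bp before the start. In KO SAMe vs WT they were at −25.4, −23.3, −20.9 and −22.1 percentage points, going away from the gene, in the authors' deposited table. KO placebo vs WT listed only the one nearest the gene, 22346101, at −22.9 (q = 1.93e-09), in the authors' deposited table. The second group was a pair 42 bp apart deep inside the gene, 368.4 kb from the start, listed for KO SAMe vs WT only at −37.3 (21976314, q = 3.19e-09) and −21.0 (21976272, q = 0.000114) in the authors' deposited table. The pair shows how unequal close neighbours can be, 16.3 percentage points apart, and the −37.3 was the largest loss of the 8 genes in that comparison. At least 6 listed sites in KO SAMe vs WT were held by 0.343% of all coding genes and by 3.17% of those with a site, Reln among them. Per 100 kb of gene and flanks, Reln had the fewest sites of the 8 genes, at 1.29.

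**Figure D3:**
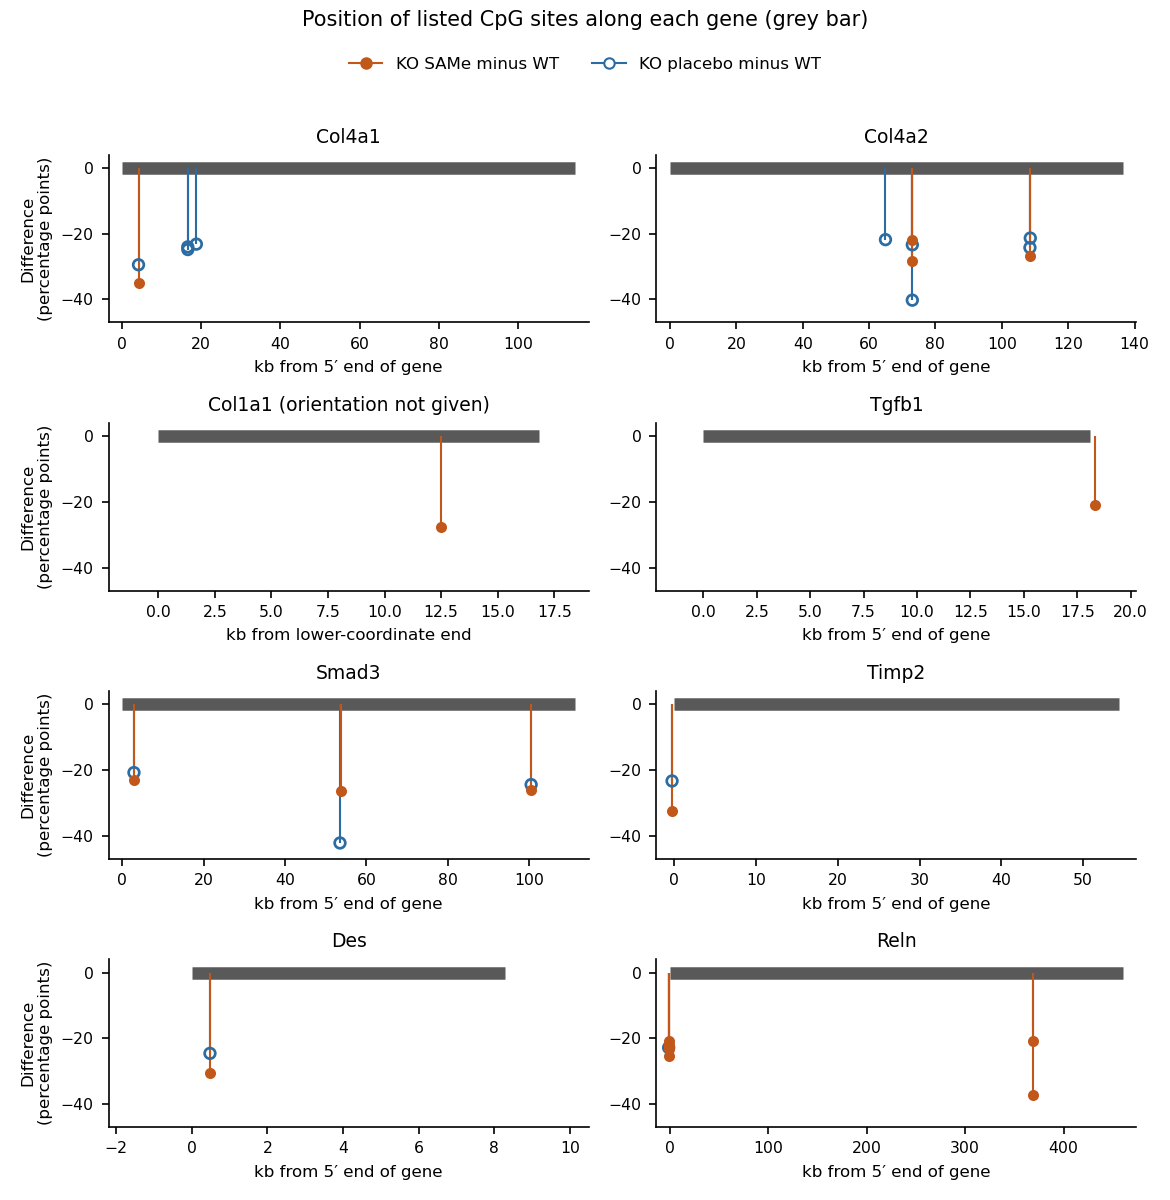
Listed CpG sites along each of the 8 genes, with the distance from the 5′ end of the gene in kb on the horizontal axis (from the lower-coordinate end for Col1a1) and the difference from WT in percentage points on the vertical axis. Grey bars are the annotated genes, filled points KO SAMe minus WT and open points KO placebo minus WT. The Timp2 site and 4 of the 6 Reln sites lie just before the gene, the other 2 Reln sites lie 368.4 kb into it, the Tgfb1 site lies 238 bp past the end, and those of Col4a2 and Smad3 reach 108.6 and 100.5 kb into the gene.

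Of the 23 sites 17 lay inside a gene, 5 upstream of its start and 1 past its end. Over the 17492 coding genes with a single known strand, 86.2% of site assignments in KO SAMe vs WT and 86.6% in KO placebo vs WT were inside the gene, 6.32% and 6.12% upstream. The 5 upstream sites belong to Timp2 and Reln, and 4 of them lie within 32 bp, so they are not separate observations. Joined over 1 kb, the 23 sites formed 15 regions. No other annotated gene lay within 2 kb of any of them. Cytosines on the minus strand made up 15 of the 23, and 50.8% of all listed sites in KO SAMe vs WT and 51.3% in KO placebo vs WT.

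The KO groups could be set side by side at the 9 sites listed in both WT tables, which is 52.9% of the 17 sites of KO SAMe vs WT and 60% of the 15 sites of KO placebo vs WT. Over all genes the shared sites were 68.9% and 55.2% of the same tables. Both tables use the same WT mice, so their values are not independent. The 3 tables add up: over the 26 CpGs that each of them lists, the WT differences of the KO groups, when subtracted, gave the listed SAMe minus placebo value to within 1e-08 percentage points. Subtraction was therefore used for SAMe minus placebo at these 9 sites. It was −9.15 for Timp2, −5.93 for Des, −5.67 for Col4a1 and −2.50 for Reln, calculated from the authors' deposited tables. In Smad3 it was −2.29 near the start and −1.70 at the far end. Col4a2 gave −2.45 at 11421271, and 1.38 and 11.9 on the plus and minus strands of the CpG described above, the last following from the −40.2 in placebo-treated KO liver. SAMe-treated KO liver was thus lower than placebo-treated KO liver at 7 of the 9 sites, against 54.2% of the 3707 sites shared by the WT tables over the genome, whose median was −0.46. The 9 sites come from 6 genes, 8 of the 9 lay within 10 percentage points as did 91.7% of all shared sites, and the authors' comparison of the KO groups lists none of them. The nearest site it does list was 0.0804 Mb from Col4a2 and between 0.217 and 7.90 Mb from the other genes.

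Gene length moved with the presence of a site and is given beside these counts. Col4a1, Col4a2, Smad3 and Reln fall in the longest of 5 equal classes of coding genes (57.1 kb and over), where 19.2% of genes had a listed site in KO SAMe vs WT and 23.5% in KO placebo vs WT. Des falls in the class from 4.17 to 11.7 kb, where the shares were 8.87% and 9.78%. Col1a1 and Tgfb1 fall in that from 11.7 to 24.6 kb, with 10.4% and 11.6%. Timp2 falls in that from 24.6 to 57.1 kb, with 12.5% and 14.3%. The number of CpG sites covered in each gene, which also bears on such counts, is not in the tables.

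The 8 genes belong to wider pathways, and 116 genes of 10 roles, the 8 included, were looked up in the tables. A listed site was found in 32 of the 116 (27.6%) for KO SAMe vs WT, in 34 (29.3%) for KO placebo vs WT and in 0 for KO SAMe vs KO placebo. The shares over all coding genes were 10.8%, 12.5% and 0.658% in the same order. Without the 8 genes, which were chosen for their sites, the counts were 24 of 108 (22.2%) in KO SAMe vs WT and 28 of 108 (25.9%) in KO placebo vs WT. The lists too were written with earlier results of these data known, so the 108 are not an independent choice and their shares are a description. The lists hold long genes, with a median of 49.3 kb against 17.2 kb over all coding genes. Among the 50 in the longest class, the 8 genes left aside, 22% had a site in KO SAMe vs WT and 34% in KO placebo vs WT, beside 19.2% and 23.5% of all genes of that class. The other length classes held fewer of these genes. From 11.7 to 24.6 kb 5 of 12 (41.7%) had a site in KO SAMe vs WT and 2 of 12 (16.7%) in KO placebo vs WT, beside 10.4% and 11.6% of all genes of that length. From 4.17 to 11.7 kb the counts were 3 of 16 (18.8%) and 4 of 16 (25%), beside 8.87% and 9.78%. From 24.6 to 57.1 kb 5 of 28 (17.9%) had a site in each WT table, beside 12.5% and 14.3%, and the shortest class had 0 of 2. All sites of the lists were lower than in WT. Over the 108 genes the median was −26.4 percentage points (60 assigned sites) in KO SAMe vs WT and −25.8 (63 assigned sites) in KO placebo vs WT in the authors' deposited tables.

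Basement membrane genes, whose median length was 113.9 kb, were listed in 7 of 23 for KO SAMe vs WT and in 13 of 23 for KO placebo vs WT, and without Col4a1 and Col4a2 in 5 of 21 (23.8%) and 11 of 21 (52.4%). Of all coding genes 10.8% and 12.5% had a listed site, and of those in the longest length class 19.2% and 23.5%. The 7 were all among the 13. Most listed coding genes were likewise shared, with 1861 in both WT tables. A further 502 were listed for KO SAMe vs WT only and 884 for KO placebo vs WT only. Whether the KO groups differed in the basement membrane count was not tested, because no values per animal are given. Apart from the type IV collagens, the laminin chain gene Lama5 reached −34.7 percentage points in KO SAMe and −35.1 in KO placebo relative to WT in the authors' deposited tables. Lamc1, another laminin chain, reached −28.1 in KO SAMe and −31.0 in KO placebo in the authors' deposited tables. The Lamb2 site, at −30.8 in KO SAMe and −30.1 in KO placebo in the authors' deposited tables, lay 1569 bp past the gene and also within 2 kb of Usp19. Fibril and other interstitial collagens were listed in 3 of 12 genes in KO SAMe vs WT and in 0 of 12 in KO placebo vs WT. Without Col1a1 the counts were 2 of 11 and 0 of 11, beside 10.8% and 12.5% of all coding genes, and a difference between the KO groups in this count was not tested. The listed genes beside Col1a1 were Col6a1 at −22.5 and Col5a1 at −20.2 in the authors' deposited table, both close to the limit of 20.

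**Figure D4:**
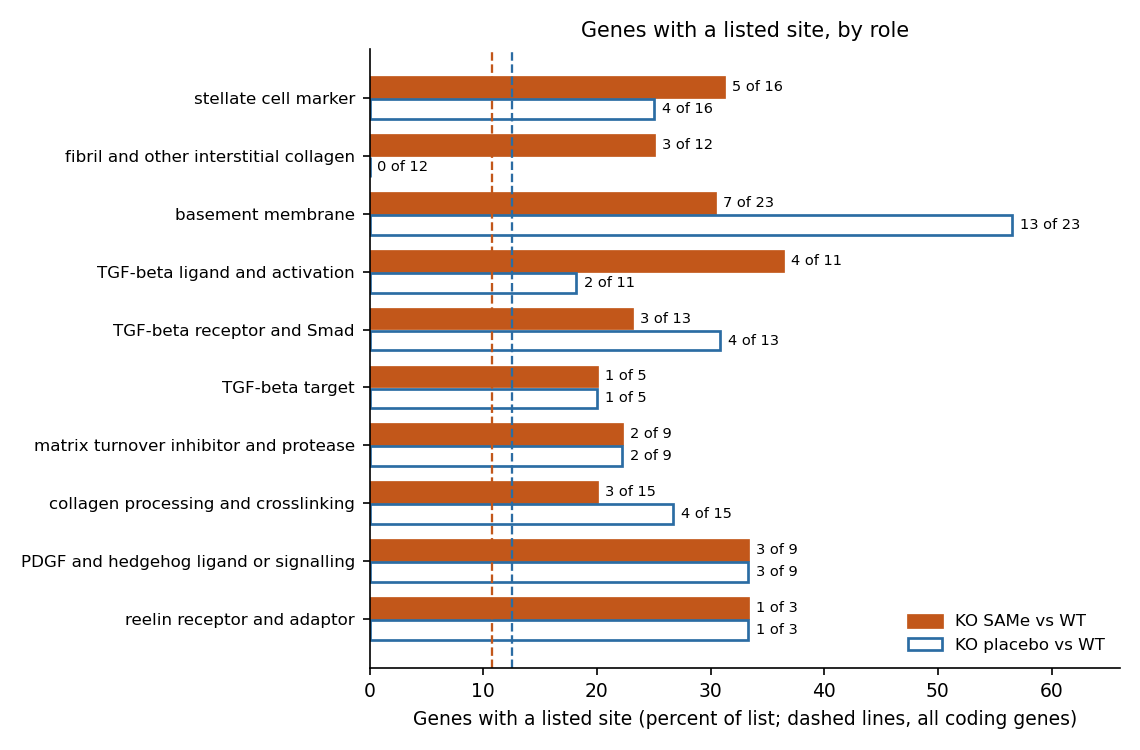
Share of genes with a listed site, in percent of each list, by role (the 8 genes included). Filled bars are KO SAMe vs WT and open bars KO placebo vs WT, with counts beside them, and dashed lines give the share of all coding genes, 10.8% and 12.5%. Basement membrane genes stand at 30.4% and 56.5%, and interstitial collagens at 25% and 0%.

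Within the list of TGF-beta receptors and Smads, Smad6, which blocks receptor signalling, held 9 sites in each WT table and reached −44.5 percentage points in KO SAMe and −46.0 in KO placebo in the authors' deposited tables. Ski, which represses Smad target genes, held 7 sites in each and reached −47.5 in KO SAMe and −47.3 in KO placebo in the authors' deposited tables. Smurf1, a ubiquitin ligase that removes pathway proteins, had 1 site in KO placebo vs WT at −22.5 in the authors' deposited table. The further inhibitors Smad7, Skil, Smurf2 and Bambi had no listed site in any table. With Smad3, sites were found in 3 of 13 genes of this list in KO SAMe vs WT and in 4 of 13 in KO placebo vs WT. Without Smad3, which was chosen for its sites, the counts were 2 of 12 (16.7%) and 3 of 12 (25%). Of all coding genes 10.8% and 12.5% had a site. The median length of this list was 69.0 kb, and in the longest length class the shares were 19.2% and 23.5%.

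Genes of ligand storage and activation were listed in 4 of 11 for KO SAMe vs WT and in 2 of 11 for KO placebo vs WT, Tgfb1 included. Without Tgfb1, which was chosen for its site, the counts were 3 of 10 (30%) and 2 of 10 (20%). Of all coding genes 10.8% and 12.5% had a site, and of those in the longest length class 19.2% and 23.5%. The median length of this list was 75.5 kb. Ltbp3, a latent TGF-beta binding protein, held 7 sites down to −33.4 percentage points in KO SAMe vs WT and 2 sites down to −31.4 in KO placebo vs WT in the authors' deposited tables. Its relative Ltbp2 had 1 site at −23.9 in KO SAMe vs WT, where KO placebo stood at −21.2, and 3 further sites down to −53.7 in KO placebo vs WT only, in the authors' deposited tables. The −53.7 site was not listed for KO SAMe vs KO placebo either. Group differences add up, so the unlisted ones there cannot both lie under 20 percentage points. Either SAMe-treated KO liver was not covered at that site or a q-value missed the limit. A loss in placebo-treated KO liver alone is therefore not shown. Itgav, an integrin chain that can release the ligand, was listed for KO SAMe vs WT at −30.2 in the authors' deposited table. Of 5 target genes only Fn1, fibronectin, was listed (20% in each WT table, beside the 10.8% and 12.5% of all coding genes). At its shared site, 71584019, which lies 1454 bp outside the gene, it stood at −23.5 in KO SAMe and −23.0 in KO placebo, and KO SAMe vs WT listed a site inside the gene at −30.0, in the authors' deposited tables.

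Stellate cell markers were listed in 5 of 16 for KO SAMe vs WT and in 4 of 16 for KO placebo vs WT, with Des and Reln among them. Without those, which were chosen for their sites, the counts were 3 of 14 (21.4%) for KO SAMe vs WT and 2 of 14 (14.3%) for KO placebo vs WT, beside 10.8% and 12.5% of all coding genes. Lhx2, a transcription factor that keeps mouse stellate cells quiescent, stood at −33.9 percentage points in KO SAMe and −37.3 in KO placebo in the authors' deposited tables. Cygb, the stellate cell globin, reached −26.1 in KO SAMe and −32.2 in KO placebo in the authors' deposited tables, at a site 1238 bp outside the gene. Ngfr, the p75 neurotrophin receptor, was listed for KO SAMe vs WT at −22.5 in the authors' deposited table. The remaining 11 markers had no listed site in either WT table.

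Around Timp2, the list of matrix proteases and their inhibitors had 2 of 9 genes with a site in each WT table. Without Timp2, chosen for its site, this was 1 of 8 (12.5%), beside 10.8% and 12.5% of all coding genes. The other gene was Mmp14, a membrane-bound collagenase, with 5 sites in each WT table. Its largest losses, −30.1 percentage points in KO SAMe and −34.4 in KO placebo in the authors' deposited tables, lay 1424 bp past the gene. Inside the gene, position 54439913 stood at −30.1 in KO SAMe and −23.8 in KO placebo in the authors' deposited tables. Collagen processing genes had a site in 3 of 15 (20%) for KO SAMe vs WT and in 4 of 15 (26.7%) for KO placebo vs WT. The shares over all coding genes were 10.8% and 12.5%. Among the collagen processing genes Loxl4, a lysyl oxidase that crosslinks collagen, reached −33.5 in KO SAMe and −30.0 in KO placebo in the authors' deposited tables. P4ha3, a collagen prolyl hydroxylase, stood at −22.2 in KO SAMe and −21.4 in KO placebo at its shared site, 100288900, and reached −24.5 at another site listed for KO SAMe vs WT only, in the authors' deposited tables. Pcolce, an enhancer of procollagen cleavage, was listed for KO placebo vs WT at −29.9 in the authors' deposited table. Growth factor and hedgehog genes, whose median length was 65.1 kb, had a site in 3 of 9 (33.3%) in each WT table. Of all coding genes 10.8% and 12.5% had a site, and of those in the longest length class 19.2% and 23.5%. Pdgfa stood at −31.7 in KO SAMe and −31.3 in KO placebo in the authors' deposited tables. Pdgfb was listed for KO SAMe vs WT at −25.8 and the hedgehog transducer Smo for KO placebo vs WT at −25.4 in the authors' deposited tables. Of the reelin receptors and adaptor, Lrp8 stood at −20.2 in KO SAMe and −22.4 in KO placebo, at different sites, in the authors' deposited tables, and Vldlr and Dab1 had no listed site.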

How the data were processed

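RRBS libraries were made from liver DNA with MspI and TaqαI, per the labels' protocols. CASAVA 1.8.2, Trim Galore, Bismark, methylKit and the build mm10 are named, with no settings, per the submitters' processing notes. The authors deposited 3 comparison tables with 1 CpG site per line, holding the p-value and q-value of each site and its methylation difference in percentage points. The test behind the p-values is not given in the sources used here. Every listed site differed by over 20 percentage points and the largest q-value was 0.0495. Depth per sample is unknown.

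Sites were assigned to RefSeq genes (GRCm38.p6, whose primary coordinates are those of mm10) with 2 kb added at both ends, using Python 3.11.15, pandas 2.3.3 and numpy 2.4.6. All 97 listed sites inside RefSeq promoter sequences fell on a CpG of the stated strand. Gene starts and strands came from the RefSeq promoter table. Exons and introns were not annotated. The assignment was tested on simulated data. No test was run beyond the authors' q-values, since no values per animal are given. The members and the 10 role lists were chosen with earlier results of these data known. Named were all 8 genes and, per list, up to 3 others with the largest absolute difference. Alternatives changed the difference, the q-value, the flank, the joining distance and the weighting of genes.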

Additional observations from a re-analysis of the deposited data

How the results depend on the processing

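Of 42 alternative values computed for 13 counts and medians, 37 stayed within 1.5 times the reported count, or within 1 SD over sites of the reported median, and 5 moved further. Requiring at least 25 percentage points left 10 of 17 sites of the 8 genes in KO SAMe vs WT, and in KO placebo vs WT 3 of 15 sites, 3 of 6 genes and 21 of 34 list genes. This alternative removes sites by its construction. Counting sites inside the gene only left 11 of 17 sites in KO SAMe vs WT, without those of Timp2 and Tgfb1 and the upstream Reln sites. A q-value under 0.01 and a 10 kb flank moved no count of the 8 genes. The q-value limit could not move them, since the largest q-value of their sites was 0.000142. KO SAMe vs KO placebo gave 0 under each alternative, and only the 10 kb flank could have raised it, because the others can only remove sites. Such fixed values are among the 37 that stayed, so that number does not measure robustness. No result without an animal could be computed, and no paired analysis was possible because the tables hold no values per animal, and the labels carry animal codes that match no animal of another group. Unknown coverage limits every statement on unlisted sites.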
